A study of Mus musculus with 8 samples.

Results

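The genes described here are 10 members of the machinery that carries a cell through the G1 phase of its cycle: the D-type cyclins Ccnd1, Ccnd2 and Ccnd3, the E-type cyclins Ccne1 and Ccne2, the cyclin-dependent kinases Cdk2, Cdk4 and Cdk6, and the inhibitors Cdkn1b and Cdkn2c. They were chosen by gene symbol, and 10 of 10 were among the 24972 genes of the deposited normalized counts. The 10 members were also all among the 13301 genes tested, because each had a value of at least 10 in at least 4 libraries. Both groups were livers of C57BL/6J mice that had received an adeno-associated virus of serotype AAV8 into a vein at 10 weeks of age and were 18 weeks old at sampling, 8 weeks later. The ATF3 group (4 libraries) received the vector named AAV8-ALB-ATF3, for the stress-induced transcription factor ATF3. The Null group (4 libraries) received AAV8-ALB-Null, the same kind of vector with no gene named. ALB is read here as the promoter of albumin, which is active in hepatocytes. The design text states 8 mice per group against 4 libraries here, and whether a library stems from 1 mouse is not stated, so the p-values below measure the spread between these libraries, which may be partly technical.

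D-type cyclins bind CDK4 and CDK6 and start the phosphorylation of the retinoblastoma protein RB, which holds E2F transcription factors in check. Cyclin E with CDK2 completes that phosphorylation, and E2F factors then switch on genes for DNA synthesis. Cdkn2c encodes an INK4 inhibitor, which binds CDK4 and CDK6, and Cdkn1b encodes a CIP/KIP inhibitor, which blocks cyclin E with CDK2. Most hepatocytes of an adult liver are out of the cycle, and cyclin D1 is the G1 cyclin best known for rising when they enter it again after injury or loss of tissue.

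Normalized counts, the unit of the values below unless another is named, are the authors' read counts per gene after scaling between libraries. They summed to between 23919261 and 28446045 per library. Taking the commonest small value of a library as 1 read put its depth at roughly 17200000 to 48500000 reads. That depth is uncertain, because only 13.6% to 26.7% of the low values of a library were whole multiples of this step. Atf3 itself had 5611, 5886, 7053 and 6722 in ATF3 1 to 4, against 24.2, 22.5, 24.5 and 20.3 in Null 1 to 4 (log2 change 8.05, limma adjusted p = 5.6e-11), and reads of the delivered and the endogenous gene are not separated in these values. The 6 hepatocyte markers summed to between 3018340 and 3570560 in ATF3 libraries and between 2034240 and 3273800 in Null libraries, with none of the 6 under 1 in any library, and 2 of them (Ttr and Tat) were called higher and 1 (Cps1) lower. In bulk tissue, fewer cells of a type and less RNA per cell cannot be told apart.

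Of the 10 members, 2 rose in ATF3 livers (Ccnd1 and Cdk6), 2 fell (Ccne1 and Cdk2) and 6 did not pass the test. Both genes that rose encode partners of the first G1 complex, of which Ccnd2, Ccnd3 and Cdk4 did not pass. Both that fell encode partners of the second, of which Ccne2 did not pass, and this split was not tested. The test was limma on log2(value + 1) over all 13301 genes (adjusted by Benjamini-Hochberg, threshold 0.05), and every log2 change below is ATF3 minus Null on that scale. Over all genes tested, 11.4% were called higher and 9.82% lower, so that 2 of 10 in each direction stands against a background of about 1 in 10. ATF3 and Null values were without overlap in the same 4 members, and in 26.3% of all genes tested. The median change was 0.02 for the members and 0.01 for all genes. The calls split into 1513 higher and 1306 lower genes. On the deposited TPM (a level per transcript length that sums to the same total in each library), the split was 440 to 76 and the median change of all genes was 0.68. In those TPM, 1 locus, Mir6236, held from 0.308% (Null 4) to 89.4% (Null 1) of a library. On that scale Ccnd1 alone of the members was called, and Cdk2 stood at 0.42, which is higher than zero and below the median of all genes.

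**Figure D1:**
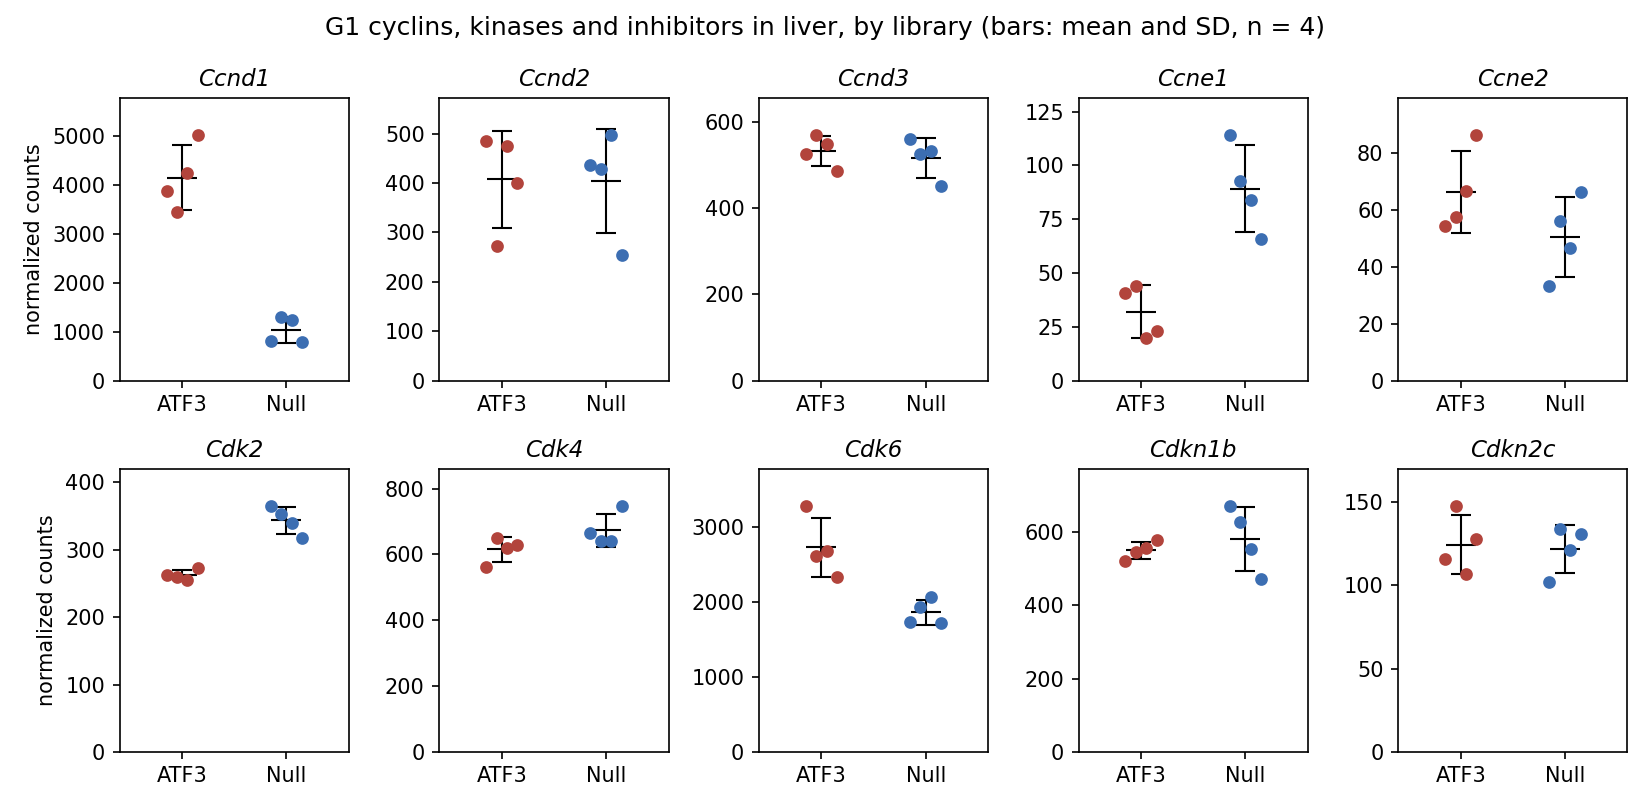
Normalized counts (vertical axes, each from 0) of the 10 genes in the 4 ATF3 and 4 Null libraries, 1 point per library, with mean and SD. The groups are apart for Ccnd1 (3459 to 5032 in ATF3, 801 to 1307 in Null), Ccne1, Cdk2 and Cdk6, and overlap for the other 6; on the deposited TPM the sign of Cdk2 turned.

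Ccnd1, which encodes cyclin D1, had the largest change of the members. ATF3 1 to 4 held 3878, 3459, 4249.9 and 5032 normalized counts, against 819, 1307, 1236 and 801 in Null 1 to 4. The lowest ATF3 library thus stood far above the highest Null library. The means were 4155 ± 668 in ATF3 and 1041 ± 268 in Null (SD, n = 4 each), a ratio of 3.99. Its log2 change was 2.02 (SE 0.18, 95% interval 1.61 to 2.43; limma adjusted p = 4.3e-05), the 133rd largest rise among the 13301 genes. The call held in 18 of 18 alternative settings, the deposited TPM among them. Rescaling by the median of ratios, also among them, gave the same values as the main fit.

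Ccnd2 and Ccnd3, the genes of the other two D-type cyclins, did not pass the test. Ccnd2 had 485, 272, 474 and 399 in ATF3 1 to 4, against 436, 429, 497 and 254 in Null 1 to 4. Each group had 1 low library, ATF3 2 and Null 4, and the ranges overlapped almost fully. The log2 change of Ccnd2 was 0.02 (95% interval -0.50 to 0.54; limma adjusted p = 0.963), so changes of up to about 0.5 in either direction are within its error. Ccnd3 had 525, 570.0, 548 and 487 in ATF3 1 to 4, against 559.9, 525, 532 and 451 in Null 1 to 4. Its interval was narrower, from -0.18 to 0.27 around a log2 change of 0.05 (limma adjusted p = 0.794).

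The make-up of the D-type cyclins was therefore not the same in the groups. A share within a library does not depend on how that library was scaled. Of the summed TPM of the 3 genes, Ccnd1 made up 74.6%, 73.1%, 75.7% and 80.8% in ATF3 1 to 4, against 37.6%, 50.4%, 47.9% and 43.8% in Null 1 to 4. Ccnd3 held a share near that of Ccnd1 in Null libraries (43.7 ± 5.32%) and a much smaller one in ATF3 libraries (19.0 ± 3.32%; SD, n = 4 each). The TPM ratio of Ccnd1 to Ccnd3 was 3.17 to 5.39 in ATF3 libraries and 0.762 to 1.30 in Null libraries, and that of Ccnd1 to Ccnd2 was 12.2 to 19.5 in ATF3 libraries and 2.87 to 4.83 in Null libraries. These shares and ratios were not tested and share their values with the change of Ccnd1 given above.

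Ccne1, the gene of cyclin E1, fell. It had 40.9, 44.1, 19.7 and 23.2 normalized counts in ATF3 1 to 4, against 114, 92.9, 84.1 and 65.6 in Null 1 to 4. No ATF3 library reached the lowest Null library, and ATF3 3 and ATF3 4 lay well below ATF3 1 and ATF3 2. The means were 32.0 ± 12.3 in ATF3 and 89.2 ± 20.2 in Null (SD, n = 4 each), and the log2 change was -1.50 (SE 0.29, 95% interval -2.14 to -0.87; limma adjusted p = 0.00432). It was the 204th largest fall among the genes tested. On the deposited TPM its change was -0.34 and not called (limma adjusted p = 0.389).

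Ccne2, which encodes cyclin E2, had 54.4, 57.6, 66.8 and 86.4 in ATF3 1 to 4, against 33.2, 56.1, 46.8 and 66.2 in Null 1 to 4. The ranges overlapped, and the log2 change of 0.40 did not pass the test (SE 0.24, 95% interval -0.12 to 0.93; limma adjusted p = 0.266). Ccne2 was the scarcer E-type transcript in every Null library and the more abundant one in every ATF3 library, per length. Its share of the summed TPM of both genes was 54.1%, 53.7%, 75.0% and 76.8% in ATF3 1 to 4, against 20.5%, 34.9%, 33.1% and 47.3% in Null 1 to 4. The span of Ccne2 overlaps that of Ints8 on the opposite strand by 5622 bases. Ints8 averaged 509 in ATF3 and 687 in Null. The kit marks strand, but whether the counting used it is not given in the sources used here, so reads of such pairs may have been mixed.

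**Figure D2:**
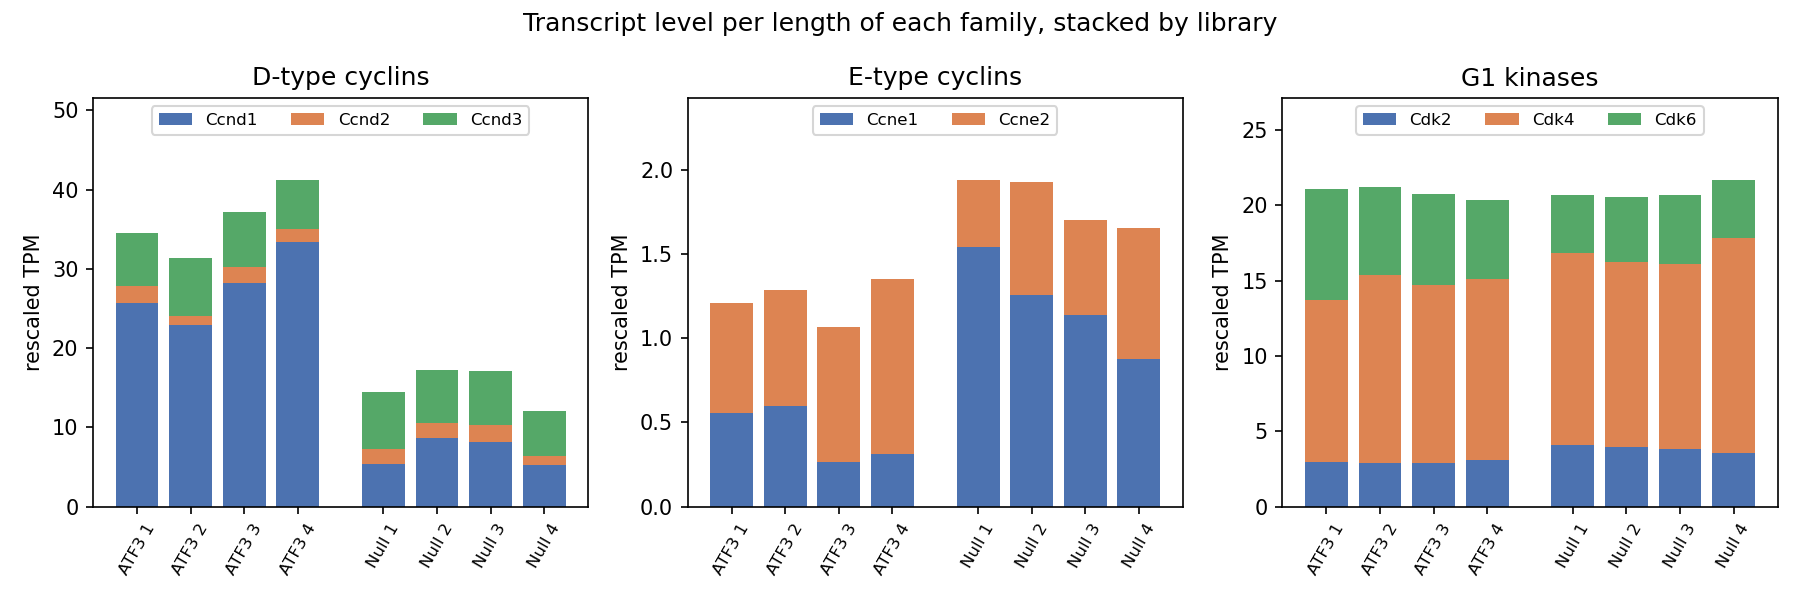
Rescaled TPM (vertical axes, from 0) of the D-type cyclins, the E-type cyclins and the G1 kinases, stacked by gene for each library, ATF3 libraries on the left of each panel. The D-type sum is 36.1 ± 4.20 in ATF3 and 15.2 ± 2.43 in Null, the E-type sum 1.23 ± 0.12 in ATF3 and 1.81 ± 0.15 in Null, and the kinase sum 20.9 ± 0.40 in ATF3 and 20.9 ± 0.52 in Null (SD, n = 4 each).

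Cdk6, which encodes a partner of the D-type cyclins, rose. Its normalized counts were 3276, 2617, 2678 and 2327 in ATF3 1 to 4, against 1726, 1932, 2058 and 1723 in Null 1 to 4. ATF3 1 was the highest library, and the lowest ATF3 library still lay above every Null library. Means were 2725 ± 398 in ATF3 and 1859.9 ± 165 in Null (SD, n = 4 each), with a log2 change of 0.54 (SE 0.12, 95% interval 0.28 to 0.80; limma adjusted p = 0.00822). Cdk6 is also used by blood cells, and ATF3 1 had the highest sums of the macrophage and lymphocyte markers as well, 12798 and 902, while those sums overlapped between the groups. Without ATF3 1 the log2 change of Cdk6 was 0.45 and still called (limma adjusted p = 0.0164). That fit leaves blood cells in the remaining libraries, and their part in the change was not tested. On the deposited TPM, Cdk6 stood at 1.25 and was not called (limma adjusted p = 0.342).

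Cdk4, the gene of the other kinase that D-type cyclins use, did not pass the test. It had 563, 649, 619 and 629 in ATF3 1 to 4, against 665, 640.4, 640.02 and 747 in Null 1 to 4. The log2 change was -0.13 (SE 0.09, 95% interval -0.34 to 0.08; limma adjusted p = 0.368), with a positive sign of 0.79 on the deposited TPM. Its gene overlaps Tspan31 on the opposite strand by 641 bases, and Tspan31 had far more reads, 6591 on average in ATF3 and 5894 in Null.

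Cdk2, the kinase gene whose product pairs with cyclin E, fell by 0.39 on the log2 scale (SE 0.09, 95% interval -0.59 to -0.18; limma adjusted p = 0.0151), although its sign turned on the deposited TPM as given above. The counts were 263, 259.8, 255 and 272 in ATF3 1 to 4, against 365, 353, 340.4 and 317 in Null 1 to 4. The groups did not overlap, and the spread within ATF3 was the smallest of the members relative to its mean, with 262 ± 7.31 in ATF3 and 344 ± 20.3 in Null (SD, n = 4 each). The call was lost without ATF3 3 (limma adjusted p = 0.0529), with a log2 change of -0.37.

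Summed per length, the 3 kinases reached 20.9 ± 0.40 rescaled TPM in ATF3 and 20.9 ± 0.52 in Null (SD, n = 4 each), with overlapping ranges. Their shares of that sum, which were not tested, stood apart for Cdk6 and Cdk2. Cdk6 made up 34.9%, 27.7%, 29.0% and 25.7% of it in ATF3 1 to 4, against 18.7%, 21.1%, 22.3% and 17.8% in Null 1 to 4. The share of Cdk2 was 14.1 ± 0.60% in ATF3 and 18.5 ± 1.51% in Null, also without overlap. Cdk4 stayed the most abundant kinase transcript of the 3 in every library, at 56.6 ± 3.71% in ATF3 and 61.6 ± 3.02% in Null, and these shares overlapped.

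Neither inhibitor among the members passed the test. Cdkn1b had 520.4, 547, 557 and 577 in ATF3 1 to 4, against 671, 628, 554 and 472 in Null 1 to 4. Its 4 ATF3 values all lay inside the range of the Null values, and the log2 change was -0.07 (95% interval -0.33 to 0.20; limma adjusted p = 0.740). Cdkn2c had 116, 147, 107 and 128 in ATF3 1 to 4, against 102, 134, 121 and 131 in Null 1 to 4, with a log2 change of 0.03 (95% interval -0.30 to 0.35; limma adjusted p = 0.923). With Cdkn1b at a like level and Ccnd1 higher, the TPM ratio of Ccnd1 to Cdkn1b was 4.03, 3.42, 4.12 and 4.71 in ATF3 1 to 4, against 0.66, 1.12, 1.21 and 0.918 in Null 1 to 4. The ratio of Cdk4 to Cdkn2c overlapped between the groups, with 4.05 to 5.31 in ATF3 and 4.40 to 5.96 in Null.

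**Figure D3:**
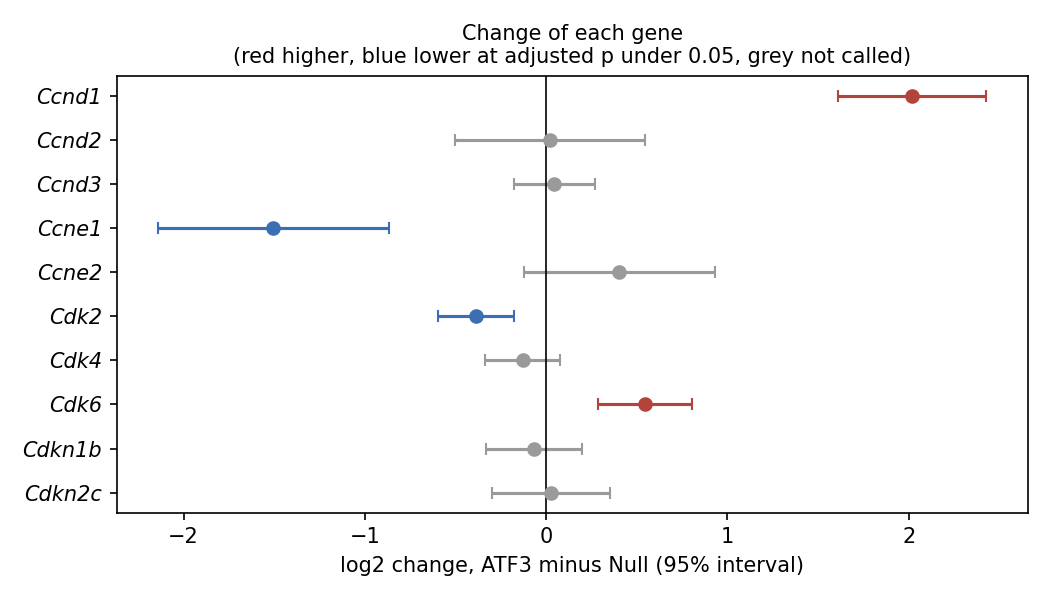
Log2 change of each gene, ATF3 minus Null (horizontal axis), with its 95% interval from limma, in red where called higher, blue where called lower and grey where not called. Ccnd1 (2.02) and Ccne1 (-1.50) lie farthest from zero on either side, and Cdk6 (0.54) and Cdk2 (-0.39) are the other called genes; the sign of Cdk2 turned on the deposited TPM.

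Levels can be ordered between genes per length, on TPM rescaled by the median of ratios so that libraries compare. In ATF3 livers Ccnd1 came first with 27.5 ± 4.42, followed by Cdk4 with 11.8 ± 0.71 (SD, n = 4 each). Ccnd3 (6.76 ± 0.45), Cdkn1b (6.75 ± 0.29) and Cdk6 (6.12 ± 0.895) came next, and their ranges overlapped. Cdk2 (2.95 ± 0.08) and Cdkn2c (2.60 ± 0.36) also overlapped, with Ccnd2 (1.76 ± 0.425), Ccne2 (0.80 ± 0.17) and Ccne1 (0.43 ± 0.17) below them and apart from each other. In Null livers Cdk4 came first with 12.9 ± 0.96. Cdkn1b (7.12 ± 1.08), Ccnd1 (6.89 ± 1.78) and Ccnd3 (6.56 ± 0.60) followed with overlapping ranges, then Cdk6 (4.17 ± 0.37) and Cdk2 (3.86 ± 0.23), which overlapped too. Cdkn2c (2.55 ± 0.30) overlapped Ccnd2 (1.75 ± 0.45), which overlapped Ccne1 (1.20 ± 0.28), and Ccne2 (0.61 ± 0.16) was lowest and apart from Ccne1. Ccnd1 thus came first in ATF3 livers and ran level with Cdkn1b and Ccnd3 in Null livers, and the last place was held by Ccne1 in ATF3 livers and by Ccne2 in Null livers.

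Promoter sequences from RefSeq (build GRCm38.p6, which is mm10) were found by symbol for 7 of the 10 members, not for Ccnd1, Ccnd2 or Ccne2, with 9 promoters in all because Ccnd3 and Cdkn2c have 2 each. The 250 bases before the start site are shown for the 3 called genes with an entry, since these are the members whose transcript level differed. Capitals mark matches, on either strand, to the motifs searched. Each promoter was searched with 50 bases after the start site included.
Ccne1, minus strand, chr7:38107491-38107740: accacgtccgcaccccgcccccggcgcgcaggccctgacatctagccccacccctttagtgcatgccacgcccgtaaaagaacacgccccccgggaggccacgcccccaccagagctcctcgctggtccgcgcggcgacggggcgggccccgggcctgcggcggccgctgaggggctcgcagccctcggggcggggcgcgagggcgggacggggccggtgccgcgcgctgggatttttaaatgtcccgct
Cdk2, minus strand, chr10:128705052-128705301: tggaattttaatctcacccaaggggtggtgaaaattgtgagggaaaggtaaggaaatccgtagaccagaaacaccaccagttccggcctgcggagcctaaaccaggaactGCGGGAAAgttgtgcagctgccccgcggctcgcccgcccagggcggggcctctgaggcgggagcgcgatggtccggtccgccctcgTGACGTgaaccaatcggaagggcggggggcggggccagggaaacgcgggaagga
Cdk6, plus strand, chr5:3343643-3343892: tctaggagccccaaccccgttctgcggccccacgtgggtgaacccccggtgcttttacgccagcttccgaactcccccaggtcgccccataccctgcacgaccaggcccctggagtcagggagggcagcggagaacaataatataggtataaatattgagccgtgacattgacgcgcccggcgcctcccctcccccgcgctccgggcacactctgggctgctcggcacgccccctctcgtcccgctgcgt

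ATF3 binds the cyclic AMP response element and related sites, and E2F factors bind sites rich in C and G. The full element TGACGTCA was in 0 of the 9 member promoters and in 1.79% of all 32851 promoters of the same length. The shorter site TGACGT, which the full element contains, was in 2 of the 9, against 7.51% of all: it begins 54 bases before the start of Cdk2 and 28 bases before 1 start of Ccnd3. The AP-1 site TGANTCA and the variant TAACGTCA, which contains the shorter site read on the other strand, were in none of the 9 (7.81% and 0.244% of all). Of the E2F sites TTTCCCGC, TTTCGCGC, TTTGCCGC and TTTGGCGC, 1 occurred, TTTCCCGC on the minus strand of Cdk2, beginning 140 bases before its start, against 2.26% of all promoters with any of the 4. The promoters shown for Ccne1 and Cdk6 held no match. These matches describe letters in short windows and not binding. The GC content of the 9 promoters was 44.0% to 76.0%, highest in Ccne1, against a median of 52.7% over all.

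In mm10 (GENCODE vM21), Ccnd1 spans 144929931 to 144939925 and Ccne1 38097984 to 38107534 on chromosome 7. Ccnd2 lies on chromosome 6 at 127125162 to 127152193 and Cdkn1b on the same chromosome at 134920401 to 134925513. Ccnd3 is on chromosome 17 (47505051 to 47599691), Cdk6 on chromosome 5 (3341485 to 3531008), and Cdk2 and Cdk4 are on chromosome 10 (128697939 to 128705031 and 127063534 to 127067920). Chromosome 4 carries Ccne2 (11191351 to 11204779) and Cdkn2c (109660876 to 109667189). Their transcripts are largely their own: the share of 31-base stretches that also occur in transcripts of other genes was at most 4.32% (Ccnd3), with 2.64% for Cdk6, 1.01% for Cdk2 and 0% for Ccnd1. The Ccnd1 span overlaps Oraov1 on the opposite strand by 1771 bases, and Oraov1 averaged 366 in ATF3 and 251 in Null.

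Of the other CDK inhibitors (5 listed), 1 of 4 tested genes rose, where 11.4% of all genes were called higher, and the others did not pass. Cdkn1a, an inhibitor that p53 induces and that can also hold cyclin D with CDK4 together, had 94.5, 53.8, 139 and 146 in ATF3 1 to 4, against 20.4, 28.6, 25.9 and 15.6 in Null 1 to 4 (log2 change 2.15, SE 0.32; limma adjusted p = 0.00115). All 4 ATF3 libraries lay above all Null libraries, and ATF3 3 and ATF3 4, the libraries with the most Ccnd1 and the least Ccne1, also held the most Cdkn1a. The same libraries held the most Atf3 as well (7053 and 6722), and this order over 4 libraries was not tested. The INK4 gene Cdkn2b stood at a log2 change of 1.20 (limma adjusted p = 0.0571), with 11.5, 25.5, 21.7 and 18.8 in ATF3 1 to 4 against 15.8, 7.20, 4.48 and 6.05 in Null 1 to 4. On the deposited TPM its change was 0.63 and called (limma adjusted p = 0.000956), below the median of all genes there (0.68). Cdkn1c (-0.40) and Cdkn2d (-0.26) did not pass, and Cdkn2a was under 2 in all 8 libraries and not tested.

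In the RB and E2F list, 4 of 13 genes rose and 3 fell, where 11.4% and 9.82% of all genes were called. The median change of the list was 0.16. Those that rose were the RB relative Rbl1 (log2 change 0.97), the repressor genes E2f7 (2.04) and E2f8 (1.72) and the E2F partner Tfdp1 (0.47), which was not called on the deposited TPM (limma adjusted p = 0.350). E2f8 had 1247, 919, 1069.6 and 1064 in ATF3 1 to 4, against 453, 333, 477 and 153 in Null 1 to 4, so that the groups did not overlap. Those that fell were Rbl2 (-0.25), E2f3 (-0.46) and Tfdp2 (-0.47), all with a positive sign and no call on the deposited TPM. The call of Rbl2 was lost without any 1 of 7 libraries (every one but Null 4; limma adjusted p from 0.0595 to 0.136). Rb1 itself averaged 457 ± 36.9 in ATF3 and 502 ± 49.2 in Null (SD, n = 4 each) and did not pass (log2 change -0.13; limma adjusted p = 0.412), and E2f1 stood at 0.33 (limma adjusted p = 0.394).

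Genes that E2F switches on in late G1 were mostly higher: 9 of 14 rose and 1 fell, where 11.4% and 9.82% of all genes were called, with a median change of 1.09 against 0.01 for all genes. On the deposited TPM, limma called 5 of the 14 higher and 0 lower, with 8 higher and 0 lower at an unadjusted p under 0.05. Most of the 9 that rose on normalized counts were Mcm genes, which encode subunits of the same helicase, and 4 of the 14 did not pass. Among the Mcm genes, Mcm2 had 353 ± 64.8 in ATF3 and 87.3 ± 10.3 in Null (SD, n = 4 each, log2 change 1.99, limma adjusted p = 1.68e-05). Ung (-0.58), the gene of a DNA repair enzyme that removes uracil, fell, and its sign turned without a call on the deposited TPM. The call of Ung was lost without ATF3 3, Null 1 or Null 3 (limma adjusted p from 0.0501 to 0.0701). Of the S, G2 and M cyclins and their kinase, 4 of 5 rose and 1 did not pass. Ccna2, the cyclin A2 gene, had 112, 156, 57.1 and 106 in ATF3 1 to 4, against 48.8, 39.1, 57.8 and 44.3 in Null 1 to 4, with ATF3 3 inside the Null range (log2 change 1.10; limma adjusted p = 0.0183). Its call was lost without ATF3 4 or Null 2 (limma adjusted p = 0.0535 and 0.0505). Ccnb1 (1.65), Ccnb2 (1.22) and Ccnf (0.84) were the others that rose, Ccnf without a call on the deposited TPM (limma adjusted p = 0.243), and Cdk1 stood at 0.79 (limma adjusted p = 0.0588). On the deposited TPM the change of Cdk1 was 0.56 and called (limma adjusted p = 0.0485), below the median of all genes there (0.68). The call of Ccnb2 was lost without ATF3 4 or Null 3 (limma adjusted p = 0.0591 and 0.0636).

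**Figure D4:**
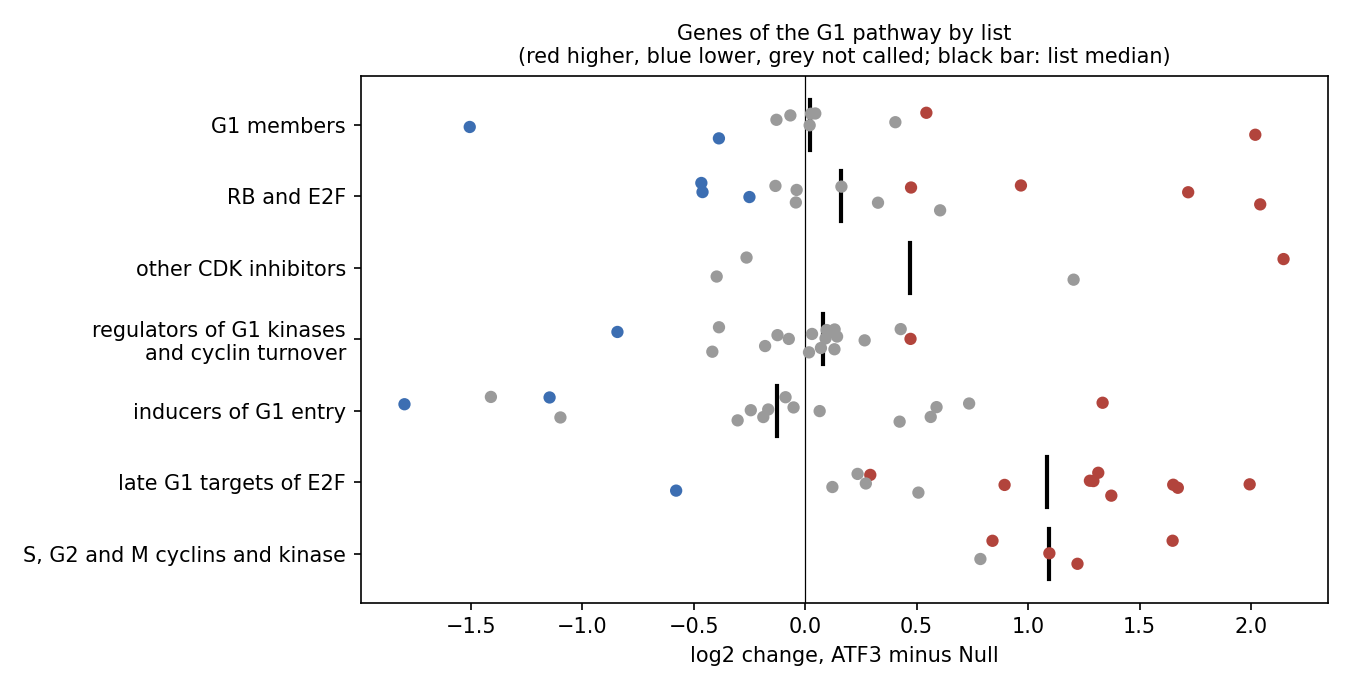
Log2 change, ATF3 minus Null (horizontal axis), of each tested gene in 7 lists, 1 point per gene, red where called higher, blue where called lower and grey where not called, with a black bar at the list median. The late G1 targets and the S, G2 and M cyclins have medians of 1.09 and 1.10, and the G1 genes described here scatter around 0.02; several genes called lower turned sign on the deposited TPM.

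Most genes that control G1 kinases and cyclin turnover did not pass the test. Of 18 tested, 1 rose (Fbxo4, log2 change 0.47) and 1 fell (Fbxo31, -0.84, with a positive sign on the deposited TPM). Among all genes, 11.4% were called higher and 9.82% lower. Fbxo4 and Fbxo31 encode F-box proteins that have been linked to the breakdown of cyclin D1, and they moved in opposite directions. The other 16, with further genes of cyclin turnover among them, were not called. Fbxo31 averaged 840.3 ± 130 in ATF3 and 1514 ± 311 in Null (SD, n = 4 each; limma adjusted p = 0.00396). The call of Fbxo4 was lost without ATF3 2, ATF3 3, ATF3 4, Null 1, Null 2 or Null 3 (limma adjusted p from 0.0729 to 0.0865), and on the deposited TPM (limma adjusted p = 0.363). Skp2 (0.43), Cks1b (-0.42) and Cdc25a (-0.39) did not pass (limma adjusted p = 0.0844, 0.0981 and 0.0647).

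Among inducers of G1 entry, 1 of 16 tested genes rose and 2 fell, where 11.4% and 9.82% of all genes were called. The list held 18 genes (Areg was too low to test and Ccn1 was not matched by name). Foxm1, a transcription factor of cycling cells, rose (log2 change 1.33; limma adjusted p = 0.0101). Both that fell encode receptors of growth factors that drive hepatocytes into the cycle. Egfr, the receptor of epidermal growth factor, had 17550.4, 7550.1, 16314 and 8228 in ATF3 1 to 4, against 46468, 33816, 42651 and 38695 in Null 1 to 4 (log2 change -1.80, SE 0.27; limma adjusted p = 0.00109). Met, the receptor of hepatocyte growth factor, averaged 2179 ± 65.2 in ATF3 and 4825 ± 202 in Null (SD, n = 4 each; log2 change -1.15, limma adjusted p = 5e-06). For both receptors every ATF3 library lay below every Null library. Neither was called on the deposited TPM, where their changes were -0.79 for Egfr and -0.17 for Met. Myc did not pass (log2 change -1.10, SE 0.68; limma adjusted p = 0.291), with 735 in Null 2 and 43.6 to 149 in the other Null libraries.

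The genes whose profile over the 8 libraries was most like that of Ccnd1 were Hist1h4k, Rcan2, Mcm2, Trhde and Anxa8, by the root mean square difference between log2 profiles centred on their means (0.15, 0.17, 0.21, 0.21 and 0.25). Anxa8 entered the test through its ATF3 values alone, its Null values all being under 10. For Ccne1 they were Bhlhe41, Adgrg2, Tnk2, St3gal1 and Scnn1a (0.20, 0.22, 0.24, 0.24 and 0.26). Every one of these 10 genes was called in the same direction as the member it resembles, which the measure of likeness favours. On the deposited TPM the 5 genes listed for Ccnd1 were still called, and the 5 listed for Ccne1 were not (limma adjusted p from 0.388 for Bhlhe41 to 0.724 for Scnn1a). The median change of all genes on that scale was 0.68, with 440 called higher and 76 lower. This contrast therefore cannot be told apart from that general shift.

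Markers of other liver cell types were compared because immune and lining cells also use G1 genes. By limma, none of the 6 macrophage, 6 endothelial, 6 stellate and fibroblast and 4 tested lymphocyte markers was called, 2 of them (Des and Pdgfrb of the stellate list) had an unadjusted p under 0.05, and of 5 cholangiocyte markers Sox9 alone was called, as lower (42.0 in ATF3 and 162 in Null on average). The macrophage sum ranged from 8510 to 12798 in ATF3 and from 7355 to 10940.1 in Null, and the lymphocyte sum from 626 to 902 in ATF3 and from 522 to 851 in Null. Endothelial sums were 9136 to 9422 in ATF3 and 9117 to 10854 in Null. The sums of the stellate and fibroblast list (5742 to 8119 in ATF3, 6646 to 9705 in Null) and of the cholangiocyte list (890.3 to 1261 in ATF3, 881 to 1407 in Null) overlapped as well. Such sums mostly follow their most abundant markers, Ptprc for lymphocytes, Spp1 for cholangiocytes, and Dcn and Col3a1 for the stellate list. Spp1 averaged 950 in ATF3 and 859 in Null, while Krt19, Krt7, Epcam and Sox9 averaged lower in ATF3. Pdgfrb did not overlap between the groups (315 to 355 in ATF3, 386 to 447 in Null). The part of such cells in the changes of Ccnd1, Ccne1, Cdk2 and Cdk6 was not tested.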

How the data were processed

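Stranded total RNA libraries of mouse liver were sequenced on a NextSeq, per the labels. The submitters' processing notes name Bowtie2 and mm10. Quantifier and annotation: not given in the sources used here. One deposited table held a signal, counts per gene as scaled by the authors, called normalized counts here, and the other, from the column sums, TPM. Within a tolerance of 0.01, 13.6% to 26.7% of low values were whole multiples of 1 step, so whole reads were not recovered and no count model was used. Libraries were grouped by the vector in the labels and matched to columns by title. No value above 0 was identical in any pair of libraries.

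Every gene reaching 10 in no fewer than 4 libraries was fitted with limma 3.58.1 (R 4.3.3; trend, two-sided) on log2(value + 1), which understates changes of low genes, with group as the only term. Benjamini-Hochberg adjustment covered all 13301 genes. The procedure was run on simulated data, independent normal log2 values with the mean and spread of each gene. Effects shared by the genes of a library were not simulated, so this run does not cover them. Python 3.11.15 with pandas 2.3.3 and numpy 2.4.6 made the tables, and matplotlib 3.10.9 the figures. Rescaled TPM are TPM divided by median-of-ratios factors. The 26 date-like names in the TPM were left out there.

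Members and lists were chosen with earlier results of these data known, and no list was tested as a set. One gene of the late G1 list is not reported here and is left out of its counts. Genes named follow a rule: the members, Atf3, fixed pathway genes and the 5 nearest profiles of Ccnd1 and Ccne1. Tfdp1, Tfdp2, Fbxo4, Fbxo31, Ccnb2, Ccnf, Met, Egfr, Ung, the single markers, Mir6236 and overlapping genes were named after their values were seen. Alternatives were other pseudocounts, filters, scalings, TPM, robust variance, library weights and leaving out each library.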

Additional observations from a re-analysis of the deposited data

Results flagged for a closer look

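Within the groups of 4, 100 sets of values (50 genes in 2 groups) were searched for a single library apart from the rest, using Dixon's critical value at the 95% level for the gap over the range, and chance alone marks about 1 in 20. None of the 10 G1 genes was marked. Myc in Null 2 was, with 735 normalized counts and a gap of 0.847 of the range of its group. Tfdp2 in Null 4 was the other, with 763 and a gap of 0.843 of the range, below the other 3 Null libraries.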

How the results depend on the processing

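Each result was recomputed under 18 alternatives. Among these, rescaling the normalized counts by the median of ratios returned the main fit (1513 higher and 1306 lower genes) and so adds no check. Ccnd1 was called higher in all 18. Among the 8 fits that leave out 1 library, its log2 change ranged from 1.91 to 2.14, that of Ccne1 from -1.68 to -1.31, that of Cdk6 from 0.45 to 0.62 and that of Cdk2 from -0.42 to -0.36, each called in all 8 except Cdk2 without ATF3 3. In these fits 2 members were called higher, 1 to 2 lower (1 without ATF3 3), and over all genes 1040 to 1965 were called higher and 851 to 1812 lower (851 without ATF3 3). Library weights gave 2271 higher and 2130 lower genes, and the deposited TPM gave 440 and 76, with 1 member higher and 0 lower. The 0 members called lower there, by limma, also numbered 0 at an unadjusted p under 0.05. On the deposited TPM the sign turned, without a call, for Cdk2 (0.42), Cdk4 (0.79), Cdkn1b (0.80), Cdkn1c (0.19), Cdkn2d (0.26), Rb1 (0.62), Rbl2 (0.64), E2f3 (0.25), Tfdp2 (0.32), Cks1b (0.40), Cdc25a (0.24), Fbxo31 (0.11) and Ung (0.17), all below the median of all genes on that scale (0.68) except Cdk4 and Cdkn1b. With library weights it turned for Ccnd2 (-0.12), Ccnd3 (-0.013), Cdkn2c (-0.016) and E2f1 (-0.011). Leaving out 1 library turned Ccnd2 (from -0.19 to 0.20), Ccnd3 (from -0.019 to 0.088), Cdkn1b (from -0.16 to 0.0070) and Cdkn2c (from -0.058 to 0.096), none of them called in any fit. With TPM rescaled by the median of ratios the same 4 members were called in the same directions, with Ccne1 at -0.77, where adding 1 weighs more on its low values. Why the deposited TPM differ was not tested. Of 216 list counts, 32 moved by more than 1.5 times. Of 693 changes of the genes named beside the members, 634 kept direction and call. Another 34 lost the call in the same direction, 14 gained it and 11 turned sign. Of those that turned sign, Rbl2, E2f3, Tfdp2, Fbxo31 and Ung also lost their call, on the deposited TPM. Cdkn2b, Cdk1, Cdc25a and Myc were called with library weights and without at least 1 library (Cdkn2b without ATF3 1 or Null 1, the others without Null 4). Cdkn2b was also called on the deposited TPM and on TPM rescaled by the median of ratios (limma adjusted p = 0.000956 and 0.0418). Cdk1 was also called on the deposited TPM (limma adjusted p = 0.0485). No paired analysis was possible because the labels give no replicate number that the groups share. With 4 libraries a group the 95% intervals of genes that did not pass stay wide, from -0.12 to 0.93 for Ccne2 and from -0.50 to 0.54 for Ccnd2.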
